A study of Mus musculus with 6 samples.

Results

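The insulin-like growth factor (IGF) axis was examined in limb cells of mouse embryos that carry a Tg:Pax7-nGFP transgene, in which nuclear GFP marks cells expressing Pax7, the paired-box factor of skeletal muscle stem and progenitor cells. Of 10 listed genes, 9 had at least 1 probe set annotated to that gene alone, among 18182 genes measured in this way. They are the ligand genes Igf1 and Igf2, the receptor genes Igf1r and Igf2r, and the binding protein genes Igfbp2, Igfbp3, Igfbp4, Igfbp5 and Igfbp7. H19 was represented by a probe set annotated jointly to H19 and Mir675, the microRNA gene that lies inside it, so that probe set was described but not counted as a gene. Members were chosen by symbol, and each gene was read from its brightest probe set over the 6 arrays. The 3 arrays of E17.5 fetuses and the 3 of E12.5 embryos hold GFP-positive cells sorted from trypsin-digested limbs, all of genotype Tg:Pax7-nGFP on a mixed C57BL/6:DBA2 background. The labels call the replicates A, B and C biological and do not say how many embryos each one pools. The sort rests on a transgene reporter, so it selects cells with GFP and not with Pax7 protein.

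IGF1 and IGF2 are secreted growth factors that bind the receptor tyrosine kinase IGF1R and act through the PI3K, AKT and mTOR pathway, and in muscle they support both proliferation and differentiation of myoblasts. IGF2R, also the cation-independent mannose 6-phosphate receptor, binds IGF2 without a kinase of its own and carries it to lysosomes. The IGF binding proteins hold the ligands outside the cell and can limit or prolong their action, whereas IGFBP7 binds IGFs weakly and is a matrix-associated relative. Igf2 and H19 are neighbouring imprinted genes, Igf2 expressed from the paternal and the noncoding H19 from the maternal allele, and Igf2r is imprinted as well.

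Levels are GCRMA signals in log2 units, and a mean ± SD covers the 3 arrays of an age (n = 3). Differences subtract the E12.5 mean from the E17.5 mean in the same units, and SE is the standard error that limma gives them. A gene was called when its Benjamini-Hochberg adjusted p over all 18182 genes was under 0.05. Signals below about 4 lie in the dense low range of this method, and arrays had medians from 3.38 to 3.47. E17.5 A and B nearly coincided: over genes with a mean of 6 or more their differences had an SD of 0.152, while the remaining pairs of arrays of the same age gave 0.412 to 0.551. They may not be independent samples, so results were also computed with the 2 averaged and counted as 1 sample, called the averaged fit. Of 7 myogenic markers of the labelled cell type 2 were called higher (Pax7 and Myog), 1 lower and 4 not. Pax7 was at 12.37 ± 0.15 in E17.5 cells and 11.46 ± 0.28 in E12.5 cells. Myog was at 13.06 ± 0.07 in E17.5 cells and 11.20 ± 0.75 in E12.5 cells. Myf5, which was not called, was at 13.07 ± 0.24 in E17.5 cells and 12.17 ± 0.57 in E12.5 cells. The marker called lower, Pax3, was at 5.29, 5.61 and 5.24 in E17.5 cells, against 8.67, 6.80 and 8.34 in E12.5 cells. The p-values measure the spread between these arrays only.

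At E17.5 the axis changed in its Igf1 ligand and in some of its binding proteins, while Igf2 had a very high signal at both ages and was not called. Igfbp7 was higher by 4.70 and Igf1 by 2.90, and Igfbp4 was lower (-1.58), as was Igfbp2 (-1.08). Of the 9 genes, 2 were called higher and 2 lower, and 5 were not called. Over all genes 8.21% were called higher and 8.73% lower, 16.9% in all. In the averaged fit 2 of the 9 were higher and 1 lower, where 5.62% of all genes were higher and 4.54% lower. The median difference of the 9 genes was 0.26, and that of all genes was 0.0033. In 7 of the 9 genes the arrays of the 2 ages did not overlap, 4 of them higher and 3 lower at E17.5, where 31.4% of all genes showed no overlap (14.2% higher and 17.2% lower). Since the genes were chosen with earlier results of these arrays known, these counts describe the 9 genes and are no test of the axis as a group. The shares cover all 18182 genes, 7777 of them with a mean under 4, while all 9 genes had a mean of at least 6.

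**Figure D1:**
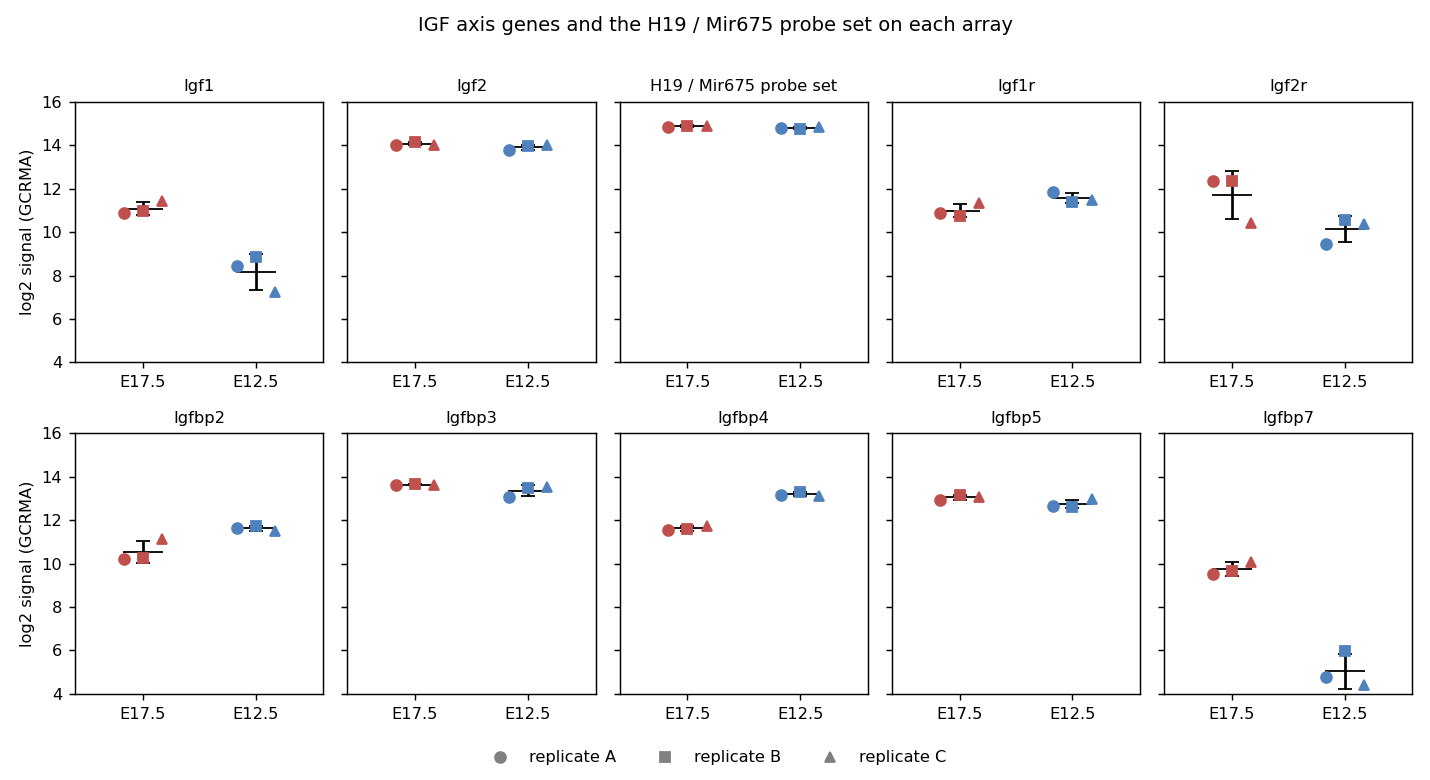
Log2 signal of each of the 9 genes and of the probe set shared by H19 and Mir675 on every array, E17.5 left of E12.5. Points are arrays, with the symbol giving the replicate letter, and bars are the mean with SD of 3 arrays. Igf1 and Igfbp7 lie far higher in E17.5 cells, Igfbp4 lies lower, Igf2 and the H19 / Mir675 probe set are near the top at both ages, and E17.5 replicate C falls among the E12.5 arrays for Igf2r.

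The sequences at the starts of the 3 genes that were called under each of the 20 other settings tried are shown here. RefSeq (GRCm38.p6) gave promoters for 9 of the 10 listed genes, each a window of 300 bases around a transcription start. The sequences are in lower case, with each E-box (CANNTG, a motif of basic helix-loop-helix factors, the same on both strands) in capitals.

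Igf1 promoter, chr10:87860861-87861160, plus strand: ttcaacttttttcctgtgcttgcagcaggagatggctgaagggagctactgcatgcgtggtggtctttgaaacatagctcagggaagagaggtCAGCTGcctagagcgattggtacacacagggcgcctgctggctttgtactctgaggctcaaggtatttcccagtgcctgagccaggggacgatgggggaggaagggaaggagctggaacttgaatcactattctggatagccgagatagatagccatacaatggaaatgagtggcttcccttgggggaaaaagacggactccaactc

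Igfbp7 promoter, chr5:77407996-77408295, minus strand: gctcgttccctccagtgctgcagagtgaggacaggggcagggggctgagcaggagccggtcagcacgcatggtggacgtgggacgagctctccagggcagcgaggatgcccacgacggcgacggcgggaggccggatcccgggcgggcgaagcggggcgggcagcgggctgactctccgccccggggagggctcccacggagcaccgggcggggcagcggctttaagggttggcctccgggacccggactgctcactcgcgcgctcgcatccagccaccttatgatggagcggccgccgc

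Igfbp4 promoter, chr11:99040994-99041293, plus strand: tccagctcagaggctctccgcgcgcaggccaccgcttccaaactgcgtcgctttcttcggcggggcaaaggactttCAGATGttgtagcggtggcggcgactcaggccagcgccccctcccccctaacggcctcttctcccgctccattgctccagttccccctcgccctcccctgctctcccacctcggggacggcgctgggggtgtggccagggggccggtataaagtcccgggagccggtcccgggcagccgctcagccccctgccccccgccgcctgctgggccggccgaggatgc

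The Igf1 and Igfbp4 windows each hold 1 E-box and the Igfbp7 window holds none of these letters, while 72.3% of 32851 RefSeq promoters of this length hold at least 1. The Igfbp7 window has 4 matches to GGGCGG, a GC box, counted on both strands, and 35.7% of all promoters hold that motif. The Igfbp4 window has 1 match to TATAAA on either strand, found in 13.6% of all promoters. The Igf1 window has 1 match to CCAAT on either strand, found in 37.4%. In base composition the 2 binding protein windows were alike, with 73.3% G and C and 33 CG dinucleotides for Igfbp7 and 71.3% and 27 for Igfbp4. The Igf1 window had 52.3% and 6, near the median promoter with 52.7% and 7. These matches describe the letters of the windows, and no binding was measured here.

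Igf1, which encodes the ligand best known for muscle growth, had signals of 10.86, 10.95 and 11.44 in E17.5 cells, against 8.42, 8.86 and 7.26 in E12.5 cells. Every E17.5 array lay well above every E12.5 array, and E12.5 replicate C was the lowest. Igf1 averaged 11.08 ± 0.31 at E17.5 and 8.18 ± 0.83 at E12.5, a difference of 2.90 (SE 0.41, adjusted p = 0.00416 by limma), or 7.48-fold on the signal scale. In the averaged fit the difference was 2.99 (adjusted p = 0.0142). Igf1 has 4 probe sets, all with a difference above 0, which from the brightest to the dimmest was 2.90, 3.09, 2.22 and 1.74. With every probe set of the arrays tested as a row, where 8.89% of 44994 were called, 3 of the 4 were called, and the dimmest, 1452014_a_at, had an adjusted p of 0.068 by limma.

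Igf2, the main fetal IGF ligand gene, gave one of the brightest signals of the arrays. It stood at 14.03, 14.16 and 14.02 in E17.5 cells, against 13.78, 13.96 and 14.00 in E12.5 cells, and its mean over the arrays was at the 99.5th percentile of genes. All 3 E17.5 arrays were above all 3 E12.5 arrays, but E17.5 C and E12.5 C nearly coincided. The difference of 0.16 (SE 0.10, adjusted p = 0.39 by limma) was not called, with a 95% interval from -0.075 to 0.39. For this probe set, a 2-fold change of signal in either direction lies outside that interval, which counts E17.5 A and B as separate arrays. In the averaged fit the difference was 0.14 (adjusted p = 0.619 by limma). The highest value of any probe set was 15.94, and whether signals this bright follow the amount of transcript was not tested. The second Igf2 probe set, 1415931_at, was much dimmer and did not move with the first. It gave 7.32, 7.38 and 7.18 in E17.5 cells, against 6.76, 8.23 and 8.90 in E12.5 cells, so the E12.5 arrays alone spanned over 2 units, and its difference of -0.67 was not called (adjusted p = 0.641 by limma). The 95% interval of that difference, from -1.93 to 0.59, includes a 2-fold fall.

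The probe set shared by H19 and Mir675 was brighter still. It stood at 14.84, 14.91 and 14.88 in E17.5 cells, against 14.81, 14.73 and 14.85 in E12.5 cells, and the ages overlapped. Its difference was 0.08 (SE 0.057, adjusted p = 0.587 by limma, with every probe set tested as a row). A per-array difference between this probe set and Igf2 averaged 0.81 ± 0.055 at E17.5 and 0.88 ± 0.13 at E12.5, and the change of -0.077 had p = 0.5 in a two-sided exact permutation test, where 0.1 is the smallest p that 3 against 3 arrays allow. With the mean of both Igf2 probe sets that change was 0.34. The joint annotation leaves the signal of the H19 transcript and of the Mir675 primary transcript inseparable on this probe set.

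The mature microRNAs encoded at these 2 genes are given because the H19 probe set carries the name of one of them, and because Mir483 lies within Igf2. The arrays give no value for either mature product. The sequences are from RefSeq (GRCm38.p6, chromosome 7, minus strand), with the seed, bases 2 to 8, in capitals, and the 4 seeds are all different.

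mmu-miR-675-5p: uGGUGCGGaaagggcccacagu
mmu-miR-675-3p: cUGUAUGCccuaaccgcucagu
mmu-miR-483-5p: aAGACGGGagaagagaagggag
mmu-miR-483-3p: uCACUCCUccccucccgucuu

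By the rule for likeness, which compared profiles over the 6 arrays after centring each gene on its own mean, the genes nearest to Igf2 among 8758 bright genes were Usp20, Sirt3 and Pgrmc2, with root mean square differences of 0.0287, 0.0412 and 0.0416. Those nearest to the H19 and Mir675 probe set were Fh1, Itm2a and Rps2 (0.0231, 0.0267 and 0.0267). None of these 6 genes was called between the ages, so the likeness is that of profiles with little difference among the 6 arrays.

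The receptors were not called, and both depended on E17.5 replicate C. Igf1r, the signalling receptor gene, had 10.87, 10.75 and 11.34 in E17.5 cells, against 11.83, 11.40 and 11.49 in E12.5 cells. All E17.5 arrays were below all E12.5 arrays, and C was the nearest to them. The mean was 10.99 ± 0.31 at E17.5 and 11.57 ± 0.23 at E12.5, a difference of -0.59 (SE 0.19, adjusted p = 0.0862 by limma). In the averaged fit it was -0.50 and not called (adjusted p = 0.244 by limma). Without E17.5 replicate C, which leaves the near-identical pair A and B, it was -0.76 and called (adjusted p = 0.0248 by limma). It was also called when genes with a mean under 4 were left out (adjusted p = 0.0464) and with array weights. Of the 5 Igf1r probe sets 4 had a difference below 0 and 1 above, from -0.77 to 0.073, and none was called.

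Igf2r, the clearance receptor gene, had 12.35, 12.34 and 10.44 in E17.5 cells, against 9.47, 10.58 and 10.37 in E12.5 cells. Replicates A and B at E17.5 were higher than every E12.5 array, while C lay between the E12.5 arrays. The difference was 1.57 (SE 0.56, adjusted p = 0.118 by limma). Without E17.5 replicate C, which leaves the near-identical pair A and B, it was 2.21 and called (adjusted p = 0.0114 by limma). In the averaged fit it was 1.25 (adjusted p = 0.298). The second probe set, 1424111_at, gave 11.01, 10.73 and 9.99 in E17.5 cells, against 9.16, 9.38 and 9.60 in E12.5 cells. There the ages did not overlap, and the difference of 1.20 had an adjusted p of 0.0501 by limma with every probe set tested as a row. Another probe set, annotated to both Igf2r and its antisense neighbour Airn, stayed between 2.39 and 2.47 on all arrays.

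The binding protein genes went in different directions. Igfbp4, whose product binds both IGFs and is mostly known as an inhibitor of their action, had 11.55, 11.58 and 11.73 in E17.5 cells, against 13.18, 13.29 and 13.12 in E12.5 cells. The arrays of each age lay close together and far from those of the other age. Igfbp4 averaged 11.62 ± 0.096 at E17.5 and 13.20 ± 0.086 at E12.5, a difference of -1.58 (SE 0.094, adjusted p = 0.000158 by limma). In the averaged fit it was -1.55 (adjusted p = 0.00141). Of its 6 probe sets, 5 were called lower, with differences from -2.17 to -1.41. The sixth, 1421991_a_at, was in the low range on all arrays.

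Igfbp2, a binding protein gene of many fetal tissues with 1 probe set, had 10.22, 10.25 and 11.14 in E17.5 cells, against 11.64, 11.74 and 11.48 in E12.5 cells. E17.5 replicate C again lay nearest to the E12.5 arrays. Igfbp2 averaged 10.54 ± 0.52 at E17.5 and 11.62 ± 0.13 at E12.5, a difference of -1.08 (SE 0.25, adjusted p = 0.0297 by limma). This call was lost in 11 of 20 other settings, among them the averaged fit (-0.93, adjusted p = 0.094) and the fits without any one of the arrays except E17.5 C (adjusted p 0.0661 to 0.101).

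Igfbp3 and Igfbp5 were bright at both ages and were not called. Igfbp3, the main carrier of IGFs in serum, stood at 13.61, 13.66 and 13.62 in E17.5 cells, against 13.09, 13.48 and 13.53 in E12.5 cells. The ages did not overlap, and the difference of 0.26 (SE 0.13, adjusted p = 0.259 by limma) has a 95% interval from -0.049 to 0.58. The second Igfbp3 probe set, 1458268_s_at, differed by 0.32 and was not called. Igfbp5, a binding protein gene that is strongly expressed during myoblast differentiation in culture, stood at 12.93, 13.15 and 13.08 in E17.5 cells, against 12.66, 12.63 and 12.97 in E12.5 cells. Here the ages overlapped, through E12.5 replicate C, and the difference was 0.30 (SE 0.12, adjusted p = 0.165 by limma), with a 95% interval from 0.0075 to 0.59 before adjustment over all genes. This Igfbp5 probe set, 1452114_s_at, is of a type designed to match more than 1 transcript. The other one, 1422313_a_at, was near the low range (4.48 ± 0.76 in E17.5 cells and 3.90 ± 0.21 in E12.5 cells). Its difference of 0.59 was not called.

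Igfbp7 had 9.51, 9.65 and 10.09 in E17.5 cells, against 4.78, 5.96 and 4.42 in E12.5 cells. The E12.5 values lay just above the low range, and the E17.5 values were clearly out of it. Igfbp7 averaged 9.75 ± 0.30 at E17.5 and 5.05 ± 0.81 at E12.5, a difference of 4.70 (SE 0.41, adjusted p = 0.000621 by limma), or 25.9-fold on the signal scale. In the averaged fit it was 4.78 (adjusted p = 0.00357). The result rests on 1 of 3 probe sets, 1423584_at. The other two were in the low range at both ages, with 1423585_at at 2.70, 3.66 and 3.66 in E17.5 cells, against 2.70, 2.63 and 2.73 in E12.5 cells, and with the mean of all 3 the difference was 1.78 (adjusted p = 0.00156 by limma).

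**Figure D2:**
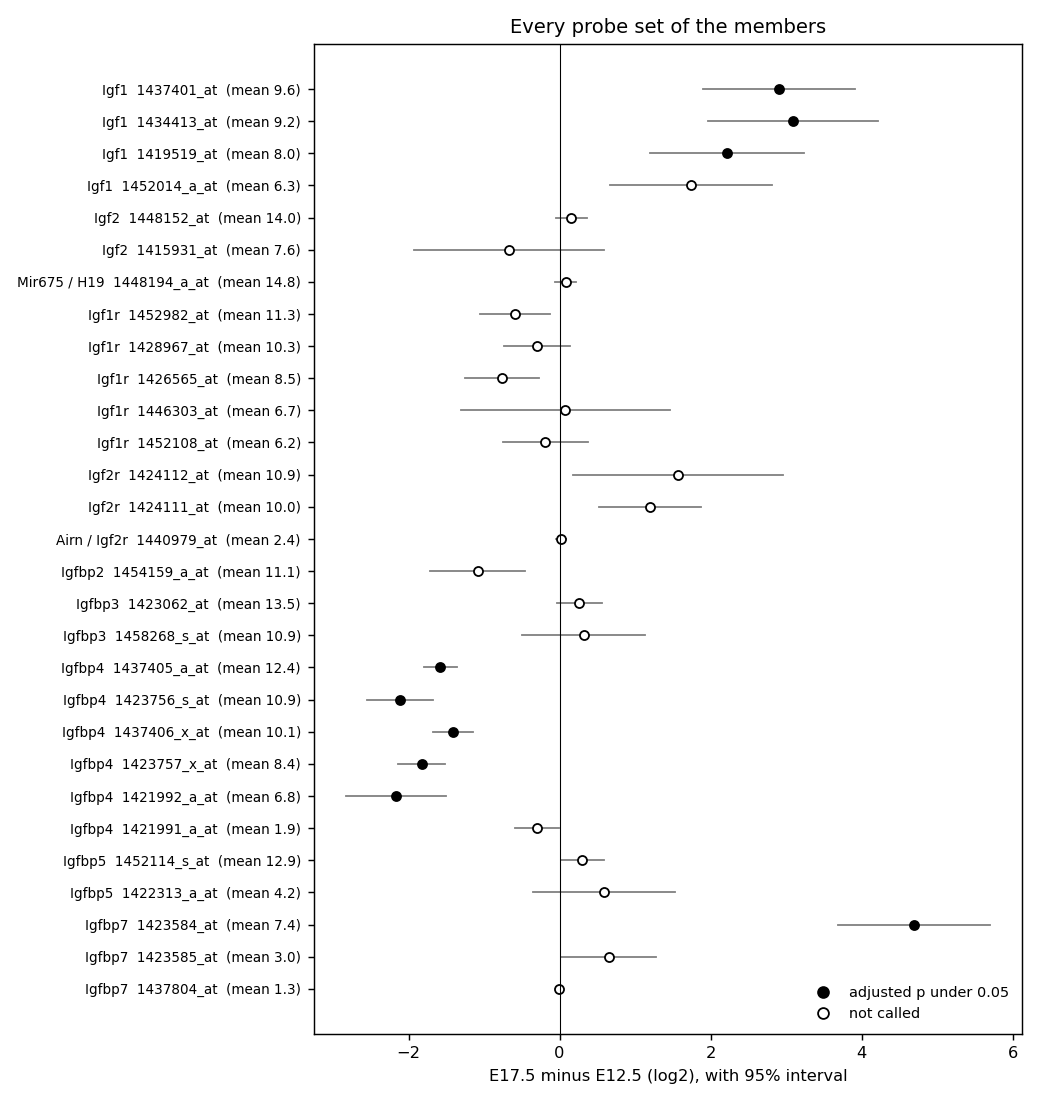
Difference between E17.5 and E12.5 (log2, horizontal axis) for each of the 29 probe sets annotated to the 10 listed genes, with its 95% interval and its mean signal in brackets. Filled points passed an adjusted p of 0.05 over all 44994 probe sets, a larger family than the 18182 genes, in which Igfbp2 was not called (adjusted p = 0.0556). The 4 Igf1 probe sets all lie above 0 and the 6 Igfbp4 probe sets all lie below it.

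Igf1 and Igfbp7 are also expressed by connective tissue and, for Igfbp7, by vessels, so the markers of such cells are given beside them. The summed signal of 12 fibroblast markers, on the log2 scale, ran from 14.95 to 15.40 in E17.5 cells and from 13.66 to 15.00 in E12.5 cells. Of these markers 3 were called higher, among them Dpt (9.04) and Postn (1.73), 4 were called lower, among them Pdgfra (-3.68) and Prrx1 (-1.95), and 5 were not called. Averaging E17.5 A and B left 2 higher and 2 lower, without Prrx1. Within E12.5, replicate B had the highest fibroblast sum (15.00, against 13.66 in A and 13.99 in C) and also the highest Igf1 and Igfbp7 signal. By the sum, the other arrays did not follow that order. E12.5 C had a higher fibroblast sum than A but lower Igf1 and Igfbp7. E17.5 C had the lowest sum of its age (14.95, against 15.38 in A and 15.40 in B) with the highest Igf1 and Igfbp7. By the median of the list, the E12.5 arrays had the order of Igf1 and Igfbp7 (9.74 in B, 7.73 in A and 7.34 in C). At E17.5, replicate C was lowest by the median as well (7.62, against 8.6 in A and 8.75 in B). Without E12.5 B the differences were 3.24 for Igf1 (adjusted p = 0.00443 by limma) and 5.15 for Igfbp7 (adjusted p = 0.000443). The part of these cells in the 2 results was not tested. In RNA of sorted populations, more cells of a type and more RNA per cell cannot be told apart.

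Of 6 endothelial markers 4 had a mean in the low range, including Pecam1 with 2.32 ± 0.0058 at E17.5 and 2.33 ± 0.11 at E12.5. One marker, the angiopoietin receptor gene Tek, was called higher (4.88), and the summed signal of the list ran from 10.12 to 10.38 in E17.5 cells and from 6.28 to 7.49 in E12.5 cells. In E17.5 cells that sum was nearly all Tek (10.12, 10.33 and 10.08). The other 5 endothelial markers were not called, and the list's median difference was -0.33. Of 5 smooth muscle and pericyte markers 2 were called higher, Rgs5 (3.89) and Cspg4 (1.90). Another 2 were called lower, Pdgfrb (-3.84) and Acta2 (-0.49), of which Acta2 was not called in the averaged fit. The sum of the 5 markers ran from 13.38 to 13.47 in E17.5 cells and from 13.75 to 14.05 in E12.5 cells. Of 5 leukocyte markers 2 were called higher, Cd68 (2.99) and Lyz2 (1.06), with sums from 7.09 to 7.45 in E17.5 cells and from 5.50 to 7.09 in E12.5 cells, and Ptprc was in the low range at both ages. Lyz2 was not called in the averaged fit. Of 5 measured red cell markers the embryonic globin genes Hbb-y, Hba-x and Hbb-bh1 were called lower, 1 of them (Hbb-y) in the averaged fit, and Alas2 (0.69) and Epb42 (0.10) were not called, with sums from 5.77 to 6.29 in E17.5 cells and from 13.03 to 14.94 in E12.5 cells. Cartilage markers had 1 of 6 called lower, Col9a1 (-4.02), and sums from 8.17 to 9.79 in E17.5 cells and from 11.76 to 12.57 in E12.5 cells. Of 3 tendon markers Tnmd was called higher (4.38, not in the averaged fit) and Mkx lower (-3.41), with sums from 6.93 to 8.93 in E17.5 cells and from 8.21 to 8.72 in E12.5 cells. Of 3 measured Schwann and neural crest markers Erbb3 was called lower (-2.80), with sums from 9.66 to 10.03 in E17.5 cells and from 12.31 to 12.93 in E12.5 cells, while Sox10 was in the low range at both ages. Those sums were nearly all Erbb3 (10.02, 9.96 and 9.64 in E17.5 cells, against 12.93, 12.30 and 12.80 in E12.5 cells). Sums of this kind follow the brightest genes of a list. The part of any of these in the differences of the IGF genes was not tested.

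Around the 9 genes, 5 lists of other pathway genes held 49 measured genes, of which 7 were called higher, 6 lower and 36 not called, beside 8.21% higher and 8.73% lower over all genes. Their median difference was 0.043. In the averaged fit 3 were higher and 6 lower, beside 5.62% and 4.54% over all genes. The called genes were 3 of the growth hormone axis, 3 adaptors, 1 PI3K subunit gene, a protease gene and a stanniocalcin gene, and 4 regulators of Igf2 and H19, among them genes of RNA-binding proteins.

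Among 10 insulin and IGF receptor partners, 2 were called higher, 1 lower and 7 not. Irs2, which encodes a docking protein of both receptors, had 7.82, 7.87 and 6.88 in E17.5 cells, against 6.54, 5.82 and 6.14 in E12.5 cells, a difference of 1.36 (SE 0.34, adjusted p = 0.0396 by limma, and 0.144 in the averaged fit). Grb10, an imprinted gene whose product inhibits both receptors, was higher by 0.35 (adjusted p = 0.0225 by limma, and 0.0974 in the averaged fit), but with the mean of its probe sets the difference was -0.34 (adjusted p = 0.615). Its relative Grb14 had 3.03, 3.06 and 3.18 in E17.5 cells, against 5.70, 5.50 and 5.78 in E12.5 cells, a difference of -2.57 (SE 0.17, adjusted p = 0.000222 by limma). Its E17.5 values lie in the low range. With values under 4 raised to 4 the difference was -1.66 (adjusted p = 0.000814), and with the mean of its probe sets it was -1.27 (adjusted p = 0.000483).

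Of 10 other binding proteins and proteins that act on them, 1 was called higher, 1 lower and 8 not, and 6 had a mean in the low range. Htra1, a secreted serine protease that cleaves IGFBP5, had 9.41, 9.40 and 9.95 in E17.5 cells, against 6.42, 7.52 and 5.80 in E12.5 cells, a difference of 3.01 (SE 0.43, adjusted p = 0.00465 by limma). As with Igf1 and Igfbp7, E12.5 replicate B was the highest of its age. Stc1, which encodes a stanniocalcin, an inhibitor of the IGFBP4 protease PAPP-A, had 5.82, 6.03 and 6.01 in E17.5 cells, against 7.99, 7.78 and 8.47 in E12.5 cells, a difference of -2.13 (SE 0.24, adjusted p = 0.00158 by limma, and -1.05 with the mean of its probe sets). Pappa itself, the PAPP-A gene, was in the low range, at 2.94 ± 0.10 in E17.5 cells and 3.27 ± 0.47 in E12.5 cells.

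In the PI3K, AKT and mTOR list 1 of 16 measured genes was called. Pik3r3, a regulatory subunit gene of PI3K, had 3.80, 4.02 and 4.31 in E17.5 cells, against 6.66, 7.65 and 6.73 in E12.5 cells, a difference of -2.97 (SE 0.34, adjusted p = 0.00179 by limma). The kinase genes Akt1 and Mtor were at 11.18 ± 0.41 and 9.48 ± 0.29 in E17.5 cells, and at 11.38 ± 0.23 and 9.37 ± 0.16 in E12.5 cells. The arrays measure transcripts, so the activity of these kinases is not seen here.

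Of the 5 growth hormone axis genes 3 were called higher and none lower, and the list's median difference was 1.64. Growth hormone acts through its receptor and STAT5 to induce Igf1 in liver and other tissues, and Socs2 is a STAT5 target that limits the signal. Socs2 had 9.53, 9.51 and 9.45 in E17.5 cells, against 6.66, 7.97 and 6.26 in E12.5 cells, a difference of 2.53 (SE 0.42, adjusted p = 0.00792 by limma, and 1.61 with the mean of its probe sets). Stat5b had 9.21, 9.52 and 9.48 in E17.5 cells, against 7.98, 7.32 and 7.98 in E12.5 cells, a difference of 1.64 (SE 0.22, adjusted p = 0.00331 by limma, and 0.85 with the mean of its probe sets). The receptor gene Ghr, named after its values were seen, was at 10.77 ± 0.16 in E17.5 cells and 9.67 ± 0.48 in E12.5 cells, and its call (adjusted p = 0.0234 by limma) did not hold with E17.5 A and B averaged (adjusted p = 0.0622). Among the called genes of this list, E12.5 replicate B was the highest of its age for Socs2 and Ghr and the lowest for Stat5b.

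Of 8 measured regulators of Igf2 and H19, 1 was called higher, 3 lower and 4 not. Igf2bp1 and Igf2bp3 encode RNA-binding proteins of embryonic tissues that bind Igf2 mRNA. Igf2bp1 had 7.52, 7.29 and 7.68 in E17.5 cells, against 10.49, 9.86 and 10.09 in E12.5 cells, a difference of -2.65 (SE 0.20, adjusted p = 0.000341 by limma). Igf2bp3 had 10.35, 10.36 and 10.38 in E17.5 cells, against 11.50, 11.51 and 11.70 in E12.5 cells, a difference of -1.21 (SE 0.095, adjusted p = 0.000403 by limma). Its probe set is of a type designed to match more than 1 transcript, with a name ending in _s_at. Without that type and without probe sets with names ending in _x_at, the difference was -0.80 and not called (adjusted p = 0.0505). Plagl1, an imprinted zinc finger factor that activates Igf2 and H19 in mouse, was higher by 0.47 (adjusted p = 0.0198 by limma, and 0.0773 in the averaged fit). The Plagl1 probe set has a name ending in _x_at, and with both of these types left out the difference was 1.23 (adjusted p = 0.213). With the mean of all Plagl1 probe sets it was 0.86 (adjusted p = 0.0262). Trim28, a corepressor that keeps imprints, was named after its values were seen and was lower (-0.85, adjusted p = 0.00622 by limma). Ctcf, which encodes the insulator protein bound between Igf2 and H19, was at 11.38 ± 0.41 in E17.5 cells and 11.10 ± 0.11 in E12.5 cells and was not called.

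**Figure D3:**
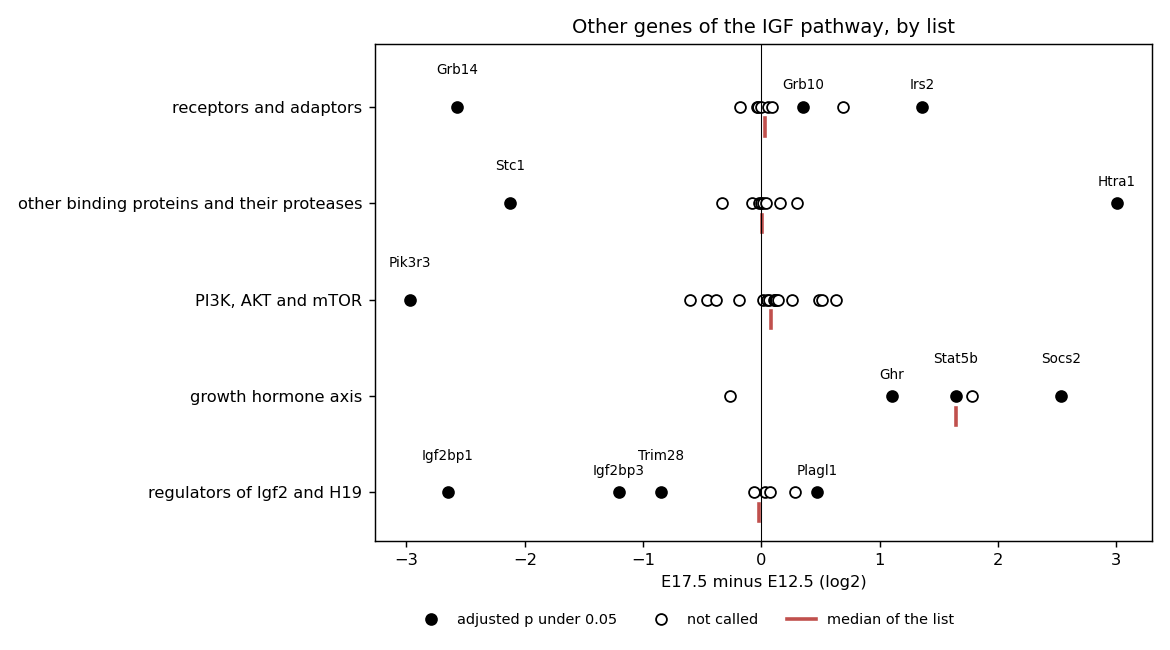
Difference between E17.5 and E12.5 (log2, horizontal axis) of 49 other pathway genes in 5 lists, 1 point per gene, filled where the adjusted p was under 0.05, with the median of each list as a red tick. The 13 called genes are named. Most points lie near 0, and the growth hormone axis has 3 of 5 genes called, all higher at E17.5.

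**Figure D4:**
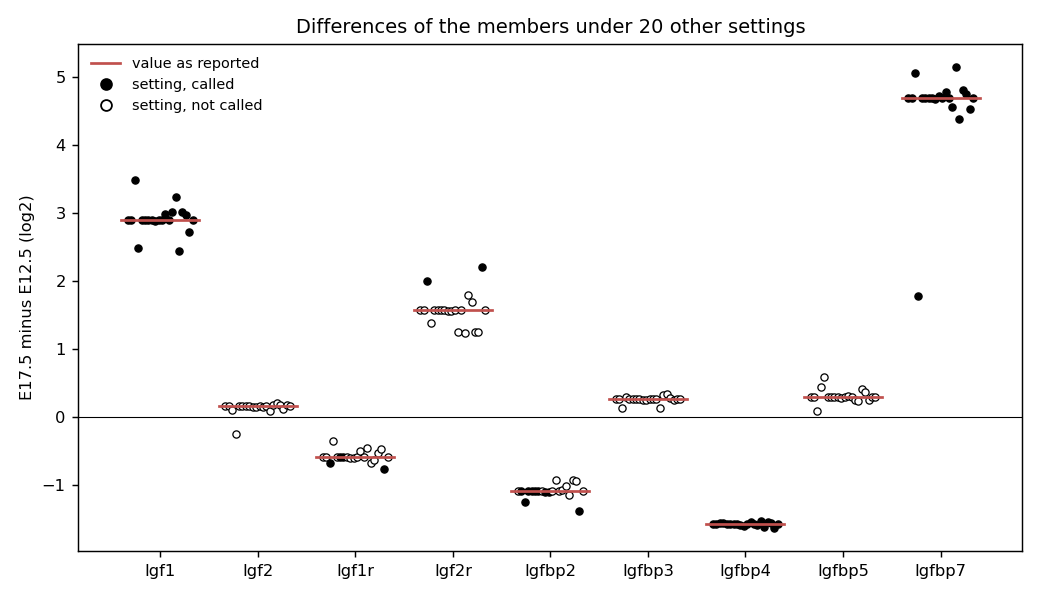
Difference of each of the 9 genes (log2, vertical axis) as reported (red line) and under 20 other settings (points, filled where the gene was called). Igf1, Igfbp4 and Igfbp7 were called under every one of these settings, Igfbp2 under 9, Igf1r under 4, Igf2r under 2, and Igf2, Igfbp3 and Igfbp5 under none.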

How the data were processed

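RNA of sorted Pax7-nGFP+ limb cells was hybridised to 6 single-colour arrays after amplification from the 3' end and biotin labelling, per the labels' protocols. The authors deposited log2 signals, 1 per probe set, made with GCRMA, per the submitters' processing notes. The version of GCRMA, the genome build, the scanner and scan dates are not given in the sources used here. This method compresses dim probe sets into a low range, so differences against that range depend on its background model. Background correction and normalization could not be varied, because scanner files were not used here.

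Of 44994 probe sets, 34909 had 1 symbol in the platform annotation (34705 matched by entrez ID to the RefSeq list of GRCm38.p6), 931 had several and 9154 had none. Each of 18182 genes was read from its brightest probe set, and 7777 had a mean under 4. Differences were fitted with limma 3.58.1 in R 4.3.3 (lmFit, eBayes with an intensity trend), without a filter, and adjusted by Benjamini-Hochberg over all genes.

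Members and lists were chosen with earlier results of these arrays known. Named genes are the members, up to 2 risen and 2 fallen called genes per pathway list, and the 3 genes nearest in profile to Igf2 and to H19. Dpt, Postn, Pdgfra, Prrx1, Pecam1, Tek, Rgs5, Cspg4, Pdgfrb, Acta2, Cd68, Lyz2, Ptprc, Col9a1, Tnmd, Mkx, Erbb3, Sox10, Hbb-y, Hba-x, Hbb-bh1, Alas2, Epb42, Pax3, Myf5, Myog, Pax7, Ghr, Trim28, Pappa, Akt1, Mtor and Ctcf describe lists and were picked once values were known. In simulated data (10 runs, 18182 genes, 200 changed per run) the fit recovered 59.1% of genes changed 2-fold and 87.4% of those changed 4-fold, and 4.41% of its calls were false. Far fewer genes were changed there than the 3080 called in the data, so these rates need not hold for this contrast. Among the alternatives were 2 variance priors, array weights, other probe set choices, filters, a floor, other normalizations, the replicate block, averaging E17.5 A and B, a stricter threshold and leaving out each array. The test of every probe set as a row was chosen after seeing the data. Matplotlib 3.10.9 drew the figures.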

Additional observations from a re-analysis of the deposited data

How the results depend on the processing

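Igf1, Igfbp4 and Igfbp7 kept their direction and their call under all 20 alternatives, with differences from 2.44 to 3.49, from -1.63 to -1.53 and from 1.78 to 5.15. The count of 2 higher members became 3 with array weights and without E17.5 replicate C. The count of 2 lower members was 1 without the intensity trend, with the floor at 4, in the averaged fit, at a threshold of 0.01 and with every probe set tested as a row, and 1 to 3 when 1 array was left out. The 7 higher pathway genes became 14 with array weights, 4 with the floor, 3 in the averaged fit and 3 at the threshold of 0.01, and 3 to 9 without 1 array (3 without E17.5 A or without E17.5 B, 4 without E12.5 C). The 6 lower ones became 14 with array weights, 4 when genes with a mean under 6 were left out, and 6 to 8 without 1 array. With all probe sets of a gene averaged, Igf2 turned to -0.26 (adjusted p = 0.733 by limma), Grb10 to -0.34 (adjusted p = 0.615), and the change of H19 minus that of Igf2 to 0.34. The cause of these shifts was not tested.

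With the replicate block, 1 member was lower and 3 pathway genes were higher. Same-letter deviations from the mean of an age correlated at -0.38, 0.255 and -0.0705 across genes, which are not independent replicates. Pairs with different letters gave -0.342 to 0.366. With 3 centred arrays per age, and E17.5 A and B nearly alike, these correlations are tied to each other. They cannot decide whether the letters pair the arrays. Signal over background limits Grb14, Pik3r3 and Igfbp7, each near the low range at 1 age.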
